A study of Mus musculus with 8 samples.

Results

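The genes described here are 10 core genes of Notch signaling, taken as a list of gene symbols by their place in the pathway, with earlier results of these data known: the receptors *Notch1*, *Notch2* and *Notch3*, the ligands *Jag1* and *Dll1*, the DNA-binding factor *Rbpj*, and the target repressors *Hes1*, *Hes5*, *Hey1* and *Hey2*. All 10 were found among the 31053 gene identifiers counted. They were measured in retinal pigment epithelium (RPE) isolated at postnatal day 29 from 4 *Bbs8*-/- mice and 4 *Bbs8*+/+ littermates, strain C57/Bl6, sex not determined, with no treatment in either group. *Bbs8*, annotated as *Ttc8*, encodes a subunit of the BBSome, the coat that carries membrane proteins into and out of the primary cilium. Each mouse was 1 library, sequenced from the 3′ ends of polyadenylated transcripts with the QuantSeq kit.

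Notch signaling passes between touching cells. A ligand of the Jagged or Delta-like family on one cell binds a Notch receptor on its neighbor, an ADAM protease and then the γ-secretase complex cut the receptor, and the freed intracellular part enters the nucleus. There it joins RBPJ and a Mastermind coactivator and switches on the *Hes* and *Hey* genes, which encode basic helix-loop-helix repressors. In the eye the pathway keeps retinal progenitors undifferentiated, favors Müller glia, and links the inner and outer layers of the ciliary epithelium through *Jag1* and *Notch2*, and ciliary basal body and BBS proteins have been tied to the sorting of Notch receptors in other cells.

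The upstream sequences of target genes show where RBPJ can bind. RBPJ recognizes the letters TGGGAA, most strongly within GTGGGAA, and both were searched on both strands in the 250 bases before each annotated transcription start in RefSeq (GRCm38.p6), so that every match to the longer word is also a match to the shorter. Of the 10 genes, 8 had an entry, with 10 start sites between them, and *Hes1* and *Hey1* were not among them. GTGGGAA stood upstream of 2 of the 8, *Hes5* and *Hey2*, and TGGGAA also upstream of *Rbpj*. Of the 27025 genes in the table, 6.18% held GTGGGAA and 24.1% held TGGGAA in such a window, as did 5.42% and 21.6% of its 32851 windows. The sequences below are those of the *Hey* and *Hes* genes with the longer word, in capitals, and of *Jag1*, which held neither, because *Hey2* and *Jag1* are the genes that differed between genotypes. Each runs 5′ to 3′ toward the gene and stops before its first annotated exon. The windows are chr10:30842802-30843033 (minus strand), chr4:154960673-154960922 (plus strand) and chr2:137116645-137116770 (minus strand), in that order.
Hey2: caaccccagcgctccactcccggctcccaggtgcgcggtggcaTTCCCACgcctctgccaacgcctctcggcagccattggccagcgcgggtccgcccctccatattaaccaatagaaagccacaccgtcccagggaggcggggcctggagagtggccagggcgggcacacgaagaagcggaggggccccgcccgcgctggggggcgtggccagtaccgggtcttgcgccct
Hes5: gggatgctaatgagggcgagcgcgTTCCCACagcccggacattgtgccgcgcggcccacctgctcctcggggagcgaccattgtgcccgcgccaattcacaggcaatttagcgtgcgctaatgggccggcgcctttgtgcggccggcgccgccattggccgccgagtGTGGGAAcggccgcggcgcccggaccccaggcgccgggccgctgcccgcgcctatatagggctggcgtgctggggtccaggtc
Jag1: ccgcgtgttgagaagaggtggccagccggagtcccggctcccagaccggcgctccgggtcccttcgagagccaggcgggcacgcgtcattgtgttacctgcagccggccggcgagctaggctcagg
The *Hey2* match lies on the reverse strand and begins 207 bases before the RefSeq start. *Hes5* holds a match on each strand, beginning 226 and 83 bases before the start. These are matches of letters, and binding was not measured.

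Libraries held 2495094 to 3093428 counts on genes in *Bbs8*+/+ and 2389835 to 2736289 in *Bbs8*-/- mice. Levels are given as CPM (counts per mega-count, a gene's counts relative to the total of its library), scaled by edgeR's TMM factors, and 3 counts, taken as the floor of a library, equal 1.02 to 1.23 CPM, a limit for counting error only. Because the kit reads 1 fragment at the end of a transcript, CPM was taken as a level per transcript with no division by length. *Ttc8* fell from 47.6 ± 10.3 to 4.70 ± 1.97 CPM (SD, n = 4), in the direction its labels give. The libraries also differed in the genes of neighboring tissues: the summed level of 17 lens genes was 3495 to 3680 CPM in *Bbs8*+/+ and 480 to 525 CPM in *Bbs8*-/- libraries, and that of 17 photoreceptor genes was 55180 to 59534 CPM and 22748 to 23303 CPM. Of 12 RPE genes, 3 rose (*Ttr*, *Otx2* and *Rrh*) and 3 fell (*Rpe65*, *Rdh5* and *Pmel*), and their sum was 36519 to 37668 CPM and 45061 to 48636 CPM, or 15644 to 16664 CPM and 14995 to 15414 CPM without *Ttr*.

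At P29, 1 of the 10 Notch genes, *Hey2*, was up-regulated and 1, *Jag1*, was down-regulated in *Bbs8*-/- RPE (edgeR's quasi-likelihood test, two-sided, adjusted p under 0.05 over 12889 tested genes). The other 8 did not pass the test. Over all tested genes the share that rose was 5.46% and the share that fell 6.80%, so 1 gene of 10 in each direction is close to the share of the whole transcriptome. Scaled by library size alone, 1005 genes rose and 657 fell, against 704 and 877. The 10 genes had a median log2 fold change of 0.34, against 0.02 for all tested genes, with 8 values above 0 and 2 below. Of all tested genes, 6677 values were above 0 and 6212 below. Tested genes with a mean under 5 CPM, where 5 of the 10 lie, had a median of 0.16. Those with a mean of 5 CPM or more, where the other 5 lie, had a median of 0.004. The values of *Rbpj*, *Dll1*, *Hes5* and *Hey1* changed sign in some of the fits that left out a library. The 2 called genes were also those whose genotype ranges were separate, 1 in each direction, against 16.0% of all tested genes (7.42% higher and 8.62% lower). All 10 passed the filter of at least 1 CPM in at least 4 libraries. *Hey2* reached 1 CPM in 2 *Bbs8*+/+ and 4 *Bbs8*-/- libraries and so would not have passed on the *Bbs8*+/+ libraries alone. Because RNA was taken from a tissue, fewer cells that express a gene and less RNA per cell cannot be told apart.

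**Figure D1:**
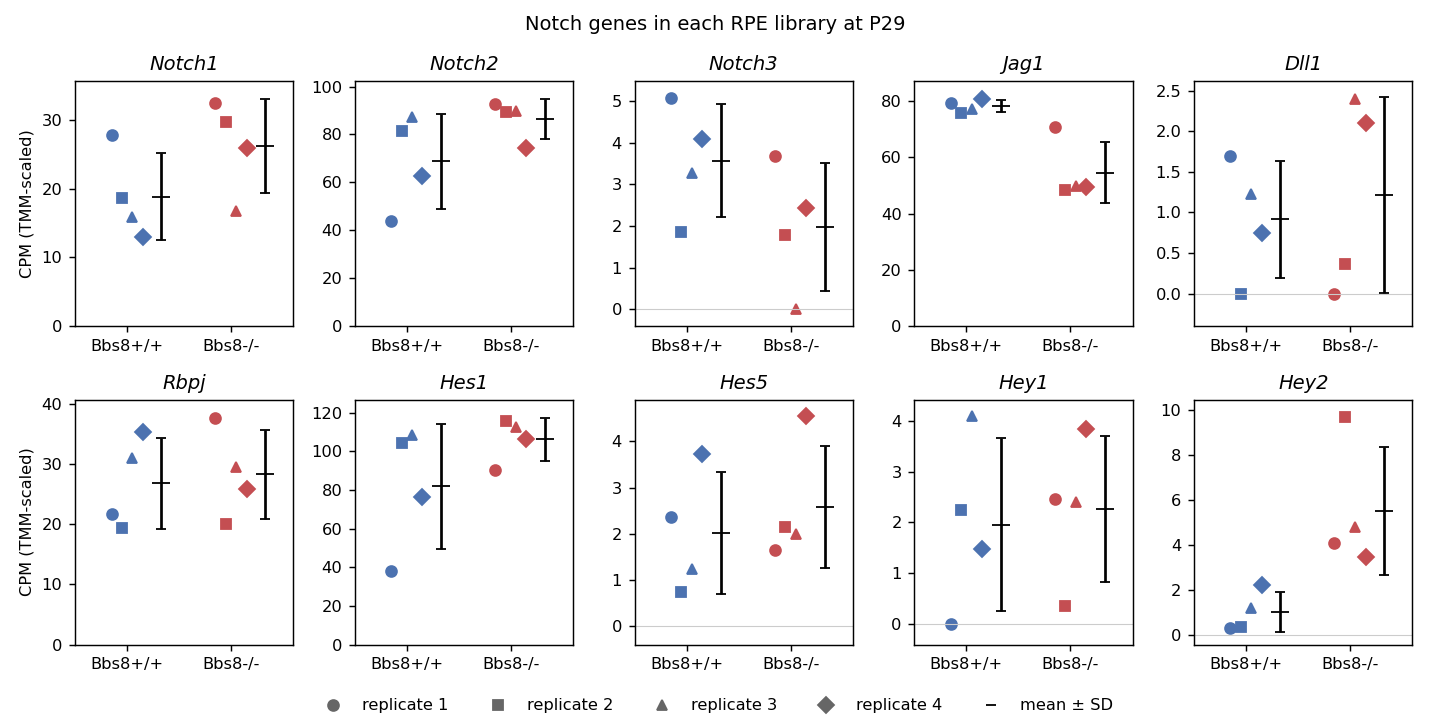
Level of the 10 Notch genes in each of the 8 libraries (vertical axes in TMM-scaled CPM, each panel with its own scale), with a symbol for each replicate and the mean ± SD of 4 libraries beside it. The genotypes are separate for *Jag1* and for *Hey2* and overlap in the other 8 panels.

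*Hes1*, *Jag1* and *Notch2* were the most abundant of the 10 in *Bbs8*+/+ RPE, at 81.9 ± 32.5, 78.2 ± 2.17 and 68.8 ± 19.8 CPM (SD, n = 4), and their ranges overlapped. *Rbpj* and *Notch1* followed at 26.9 ± 7.57 and 18.8 ± 6.38 CPM, below the lowest *Notch2* library and overlapping each other. *Notch3*, *Hes5*, *Hey1*, *Hey2* and *Dll1* formed a low group between 3.58 and 0.916 CPM, each overlapping the next. In *Bbs8*-/- RPE the order was *Hes1*, *Notch2*, *Jag1*, *Rbpj*, *Notch1*, *Hey2*, *Hes5*, *Hey1*, *Notch3* and *Dll1*. There *Jag1* lay below every *Notch2* library, while in *Bbs8*+/+ RPE the ranges of this pair overlapped, and *Hey2* moved from the ninth to the sixth place. Among all tested genes, *Hes1* stood at the 86.1 percentile of mean level and *Dll1* at the 1.21 percentile.

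The ligands were the first group examined. *Jag1* (ENSMUSG00000027276, chr2:137081456-137116644 on the minus strand of GRCm38) encodes the transmembrane ligand Jagged 1, which is needed for lens and ciliary body formation. Its level was 79.2, 75.7, 77.3 and 80.6 CPM in the *Bbs8*+/+ libraries and 70.6, 48.4, 49.6 and 49.3 CPM in the *Bbs8*-/- libraries. The genotypes did not overlap, all *Bbs8*-/- values being lower, and *Bbs8*-/- replicate 1 was closer to the wild type than the other 3. *Jag1* fell by 0.52 on the log2 scale (standard error 0.154, 95% interval -0.84 to -0.21, adjusted p = 0.0182, edgeR's quasi-likelihood test), from 78.2 ± 2.17 to 54.5 ± 10.8 CPM (SD, n = 4). Without *Bbs8*-/- replicate 1 the log2 fold change was -0.67 (adjusted p = 0.00277), and with *Bbs8*+/+ replicate 4 or *Bbs8*-/- replicate 2, 3 or 4 left out the adjusted p was 0.0529, 0.0661, 0.0584 and 0.0629. Scaling by library size alone gave -0.44 (adjusted p = 0.0543).

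All 17 lens genes tested fell, with a median log2 fold change of -2.86. *Jag1* is also made in the lens, and the part of lens RNA in its change was not tested. The lens sum of *Bbs8*-/- replicate 1, the library with the highest *Jag1* of its group, was 484 CPM, within the 480 to 525 CPM of its group.

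*Dll1* (ENSMUSG00000014773) encodes a Delta-like ligand of progenitor and neuronal cells. It had 5, 0, 3 and 2 counts in the *Bbs8*+/+ libraries and 0, 1, 6 and 6 counts in the *Bbs8*-/- libraries. These values lie around the floor and the groups overlap (log2 fold change 0.39, 95% interval -1.91 to 2.68, adjusted p = 0.891, edgeR), so a difference was not detectable at this depth. The noncoding gene *A930024N18Rik* shares 867 exonic bases with *Dll1* on the opposite strand. The strand setting of the counting is not given in the sources used here, so reads of the pair may be mixed.

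Among the receptors, *Notch2* (ENSMUSG00000027878, chr3:98013527-98150361, plus strand) was the most abundant. It had 43.7, 81.3, 87.5 and 62.8 CPM in the *Bbs8*+/+ libraries and 92.8, 89.2, 89.6 and 74.4 CPM in the *Bbs8*-/- libraries. The groups overlap, with *Bbs8*+/+ replicate 1 the lowest of the 8. The log2 fold change was 0.33 (95% interval 0.00 to 0.66), with an unadjusted p of 0.0481 and an adjusted p of 0.208 in edgeR's quasi-likelihood test. On the same strand, *Gm42820* shares 541 exonic bases with *Notch2* and is not among the counted genes. Its reads may be among those of *Notch2*.

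*Notch1* (ENSMUSG00000026923, chr2:26457903-26516663, minus strand), the receptor of retinal progenitors, had 27.8, 18.6, 15.9 and 13.0 CPM in the *Bbs8*+/+ libraries. In the *Bbs8*-/- libraries it had 32.4, 29.7, 16.8 and 25.9 CPM. Here *Bbs8*+/+ replicate 1 was the highest of its group, and the groups overlap (log2 fold change 0.47, 95% interval -0.07 to 1.01, adjusted p = 0.296, edgeR). On the opposite strand, *0610009E02Rik* and *Gm13568* share 1226 and 414 exonic bases with *Notch1* and are not among the counted genes. With the strand setting not given, their reads may be among those of *Notch1*.

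*Notch3* (ENSMUSG00000038146), the receptor of pericytes and vascular smooth muscle, had 15, 5, 8 and 11 counts in the *Bbs8*+/+ libraries and 9, 5, 0 and 7 counts in the *Bbs8*-/- libraries. The groups overlap (log2 fold change -0.84, 95% interval -2.49 to 0.81, adjusted p = 0.60, edgeR). The antisense gene *Gm17276* shares 628 exonic bases with it and had at most 8 counts in a library. The summed level of 10 other pericyte and smooth muscle genes was 165 to 202 CPM in *Bbs8*+/+ and 146 to 201 CPM in *Bbs8*-/- libraries.

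*Notch2* supplied 57.1% to 82.0% of the counts of the 3 receptors in *Bbs8*+/+ libraries and 72% to 84.2% in *Bbs8*-/- libraries, with means of 74.4% ± 11.6 and 75.6% ± 5.78 (SD, n = 4). The 57.1% belonged to *Bbs8*+/+ replicate 1. The summed CPM of the 3 receptors was 0.966 to 1.38 times that of *Jag1* in *Bbs8*+/+ libraries and 1.83 to 2.50 times in *Bbs8*-/- libraries. This ratio was computed after the values of *Jag1* had been seen and holds its difference, so it is given without a test.

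*Rbpj* (ENSMUSG00000039191, chr5:53466152-53657362, plus strand), the DNA-binding factor shared by all Notch receptors, had 21.7, 19.4, 31.1 and 35.3 CPM in the *Bbs8*+/+ libraries. It had 37.8, 20.1, 29.6 and 25.9 CPM in the *Bbs8*-/- libraries, and the groups overlap over most of their range. Its log2 fold change was 0.07 (95% interval -0.41 to 0.56, adjusted p = 0.904, edgeR), and it was above or below 0 depending on the library left out. The interval reaches changes of the size seen for *Jag1* in the upward direction but not in the downward one.

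Of the 4 target repressors, *Hey2* was the one that passed the test. *Hey2* (ENSMUSG00000019789, chr10:30832359-30842801, minus strand) acts in vessels and heart and favors glial fate in the developing retina. The *Bbs8*+/+ libraries held 1, 1, 3 and 6 counts of it, and the *Bbs8*-/- libraries 10, 27, 12 and 10 counts. The *Bbs8*+/+ libraries lay at or near the floor, every *Bbs8*-/- library lay above them, and *Bbs8*-/- replicate 2 had more than the others of its group.

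The mean of *Hey2* was 1.04 ± 0.892 CPM in *Bbs8*+/+ and 5.52 ± 2.82 CPM in *Bbs8*-/- libraries (SD, n = 4), and it rose by 2.37 on the log2 scale (standard error 0.788, 95% interval 0.77 to 3.97, adjusted p = 0.0414, edgeR's quasi-likelihood test). Summed over libraries this was 11 counts against 59, a ratio of 5.46 with a 95% exact binomial interval of 2.84 to 11.5 for counting error only. Leaving out *Bbs8*+/+ replicates 1, 2 and 3 and *Bbs8*-/- replicates 2 and 3, one at a time, moved the adjusted p above 0.05, to 0.0931, 0.112, 0.0680, 0.190 and 0.0600, with log2 fold changes between 1.95 and 2.45 in these fits. Among the 2756 tested genes with a mean under 5 CPM, to which *Hey2* belongs, 1.12% were up-regulated.

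*Hey2* is a known gene of arterial endothelium and smooth muscle. The summed level of 13 endothelial genes, led by *Kdr*, was 43.7 to 52.2 CPM in *Bbs8*+/+ and 50.1 to 57.3 CPM in *Bbs8*-/- libraries, none of the 10 tested passed edgeR's test (0 had an unadjusted p under 0.05), and *Erg* was at 0 in all libraries. The 10 reactive glia genes, led by *Stat3* in *Bbs8*+/+ and by *Serpina3n* in *Bbs8*-/- libraries, summed to 303 to 430 CPM and 1424 to 1496 CPM. Of the 10, 7 were up-regulated, against 5.46% of all tested genes. Among these 7, *Edn2* had 0 counts in every *Bbs8*+/+ library and *Gfap* 1, 0, 6 and 4 counts. Neither would have passed the filter on the *Bbs8*+/+ libraries alone. The 10 Müller glia genes, led by *Clu*, summed to 11734 to 13157 CPM and 15396 to 16323 CPM, with 5 of 10 up-regulated. Those 5 were *Glul*, *Dkk3*, *Apoe*, *Clu* and *Sox9*. *Slc1a3*, *Aqp4*, *Kcnj10*, *Rlbp1* and *Vim* did not pass (adjusted p = 0.139, 0.102, 0.376, 0.771 and 0.520, edgeR). *Rlbp1* is also on the RPE list, so the list is not particular to glia. Genes of ciliary and surface epithelium summed to 4.74 to 10.1 CPM and 62.4 to 80.4 CPM, with 4 of the 5 tested up-regulated and the corneal keratin *Krt12* at 0 in all libraries. Those 4 were the surface epithelium genes *Krt5*, *Krt14*, *Krt15* and *Lad1*. *Krt5* and *Krt14* had 0 counts in every *Bbs8*+/+ library and *Krt15* at most 1. *Krt5*, *Krt14* and *Krt15* passed the filter only through the *Bbs8*-/- libraries, so for them the filter itself favored a rise. *Lad1* had 6, 5, 3 and 4 counts in the *Bbs8*+/+ libraries and would have passed on these alone. The fifth, *Wfdc1*, did not pass (log2 fold change -0.55, adjusted p = 0.785, edgeR), and *Zic1*, *Opcml*, *Trp63* and *Krt13* were too low to test. *Bbs8*-/- replicate 2, the library with the most *Hey2*, had the highest sum of its group for the endothelial and the reactive glia list, each by little. The sums were 57.3 and 1496 CPM, against 56.0 and 1493 CPM in replicate 3. It was not the highest for the Müller glia and the epithelial list. For the pericyte and smooth muscle list it had 166 CPM, within the 146 to 201 CPM of its group. The part of these cell types in the rise of *Hey2* was not tested.

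*Hes1* (ENSMUSG00000022528, chr16:30064384-30067796, plus strand), the main effector that keeps cells undifferentiated and that is also driven by other signals, was the most abundant of the 10. Its level was 38.3, 104, 109 and 76.2 CPM in the *Bbs8*+/+ libraries and 90.3, 116, 112 and 106 CPM in the *Bbs8*-/- libraries. *Bbs8*+/+ replicate 1 was the lowest of the 8, and *Bbs8*+/+ replicate 4 was also below every *Bbs8*-/- library. *Bbs8*+/+ replicates 2 and 3 lay within the range of the *Bbs8*-/- libraries. The log2 fold change was 0.38 (95% interval 0.01 to 0.75), with an unadjusted p of 0.0436 and an adjusted p of 0.195 in edgeR's quasi-likelihood test.

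*Hes5* (ENSMUSG00000048001), a target typical of neural progenitors and glia, had 7, 2, 3 and 10 counts in *Bbs8*+/+ and 4, 6, 5 and 13 counts in *Bbs8*-/- libraries. *Hey1* (ENSMUSG00000040289), the close relative of *Hey2* in endothelium, had 0, 6, 10 and 4 counts and 6, 1, 6 and 11 counts. For both the groups overlap. *Gm20421*, not among the counted genes, shares 433 exonic bases with *Hes5* on the opposite strand, so its reads may be among those of *Hes5*. Their log2 fold changes were 0.35 (95% interval -1.33 to 2.04, adjusted p = 0.857) and 0.23 (95% interval -1.66 to 2.13, adjusted p = 0.926, edgeR), and both intervals overlap that of *Hey2*. Whether the targets differed from each other in their response was not tested.

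**Figure D2:**
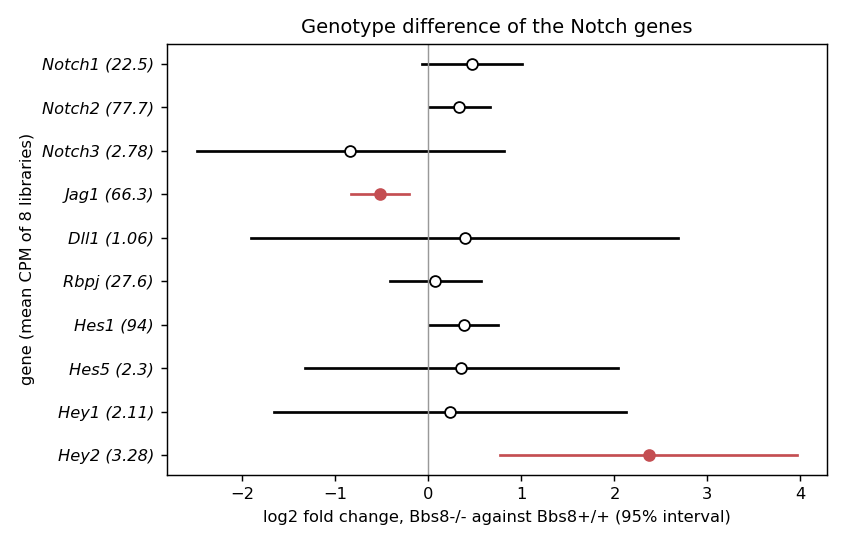
Log2 fold change of each of the 10 Notch genes in *Bbs8*-/- against *Bbs8*+/+ RPE (horizontal axis; bars are 95% intervals from edgeR's quasi-likelihood fit), with the mean CPM of 8 libraries beside each symbol. Filled red points passed an adjusted p of 0.05, which were *Jag1* at -0.52 and *Hey2* at 2.37, and the widest bars belong to genes with a mean under 5 CPM.

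*Bbs8*+/+ replicate 1 weighed on several of these values. It was low for *Hes1* and *Notch2* and high for *Notch1*, and over the 8428 genes whose mean reached 10 CPM it stood apart from the rest of its group for 2.47%, against 0.807% to 1.92% for the other 7 libraries. Without it the log2 fold change of *Hes1* was 0.14 (adjusted p = 0.624, edgeR), that of *Notch2* 0.16 (adjusted p = 0.585) and that of *Notch1* 0.72 (adjusted p = 0.0912). *Jag1* was down-regulated with and without it.

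**Figure D3:**
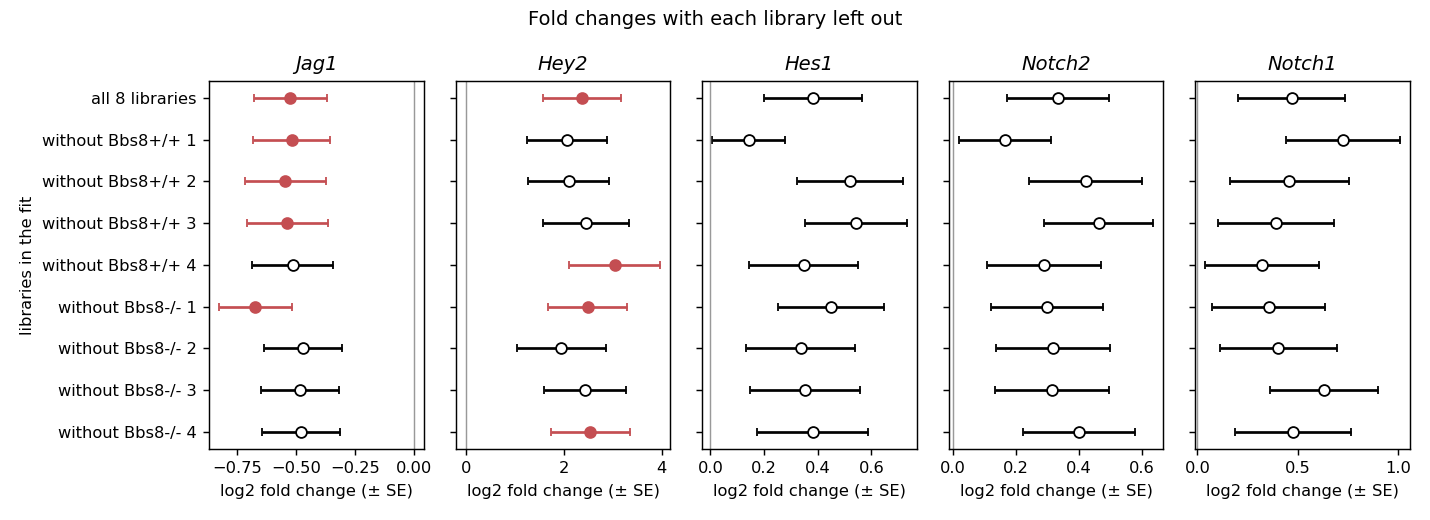
Log2 fold change (horizontal axes, ± standard error) of 5 Notch genes with all 8 libraries and with each library left out, by row, red and filled where the adjusted p was under 0.05. *Jag1* passed in 4 of the 8 reduced fits and *Hey2* in 3, and the values of *Hes1* and *Notch2* were smallest without *Bbs8*+/+ replicate 1.

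The pathway was then followed beyond the 10 genes through a list of 63 further genes, of which 54 were tested. Of these, 1 was up-regulated and 2 were down-regulated, so that 5.56% passed the test, against 12.3% of all tested genes. Their median log2 fold change was 0.06, with 30 values above 0 and 24 below. The genotypes did not overlap for 2 genes in the upward (3.70%) and 5 in the downward direction (9.26%), against 7.42% and 8.62% of all tested genes.

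The down-regulated pair were nuclear cofactors, 2 of 21 tested (9.52%), near the 6.80% of all tested genes that fell. *Ncor1*, a corepressor that many transcription factors use besides RBPJ, had 628, 536, 513 and 574 CPM in the *Bbs8*+/+ libraries and 399, 367, 392 and 366 CPM in the *Bbs8*-/- libraries. The groups do not overlap, and *Ncor1* fell by 0.56 on the log2 scale (standard error 0.0828, adjusted p = 2.67e-06, edgeR). *Snw1*, a splicing factor that also binds the Notch complex as SKIP, had 408, 359, 329 and 344 CPM against 281, 261, 266 and 294 CPM. It fell by 0.39 on the log2 scale (standard error 0.0903, adjusted p = 0.00239, edgeR), again without overlap. Both passed in all 8 fits that left out a library. The other 19 tested cofactors, among them the Mastermind genes *Maml1*, *Maml2* and *Maml3*, did not pass.

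Of 14 genes of endocytosis and turnover, *Dtx4*, a Deltex ubiquitin ligase that acts on Notch in endosomes, was up-regulated (7.14%, against 5.46% of all tested genes). Its level was 4.74, 6.34, 3.27 and 1.86 CPM in the *Bbs8*+/+ libraries and 11.5, 6.81, 16.4 and 8.74 CPM in the *Bbs8*-/- libraries. The groups are separate by a small gap. *Dtx4* rose by 1.40 on the log2 scale (standard error 0.459, adjusted p = 0.0375, edgeR), and the adjusted p was between 0.0254 and 0.177 with a library left out, under 0.05 in 4 of 8 fits. *Fbxw7*, the ubiquitin ligase subunit that marks the cleaved receptor for destruction and the most abundant gene of this list, was at 124 ± 11.9 and 145 ± 15 CPM (SD, n = 4; log2 fold change 0.23, adjusted p = 0.218, edgeR).

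None of the 14 tested genes of receptor cleavage and sugar transfer passed the test in edgeR's fit, and 4 (28.6%) had an unadjusted p under 0.05, against 23.4% of all tested genes. With *Bbs8*-/- replicate 3 left out, *Psenen*, a γ-secretase subunit, passed. The most abundant over all 8 libraries was *Psen2*, a catalytic subunit of γ-secretase, although the receptor convertase *Furin* had the higher mean in *Bbs8*+/+ RPE, 71.1 ± 10.8 CPM, with overlapping ranges. *Psen2* was at 57.3 ± 4.58 and 71.4 ± 4.91 CPM (SD, n = 4), without overlap (log2 fold change 0.32, adjusted p = 0.181, edgeR).

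Of the remaining receptors and ligands, *Dlk1*, *Dlk2* and *Jag2* were tested and did not pass, and *Dlk1* ranged from 0 to 18 counts within *Bbs8*+/+ libraries. *Notch4*, the endothelial receptor, had 4, 7, 2 and 5 counts against 2, 2, 1 and 0 counts. *Dll4*, the ligand of sprouting endothelium, had 2, 3, 0 and 0 counts against 0 in each *Bbs8*-/- library. Neither reached the filter. All 9 counts of *Dll3* came from *Bbs8*-/- replicate 2. *Hes6*, a *Hes* gene that opposes *Hes1*, was at 38.2 ± 8.32 and 41.1 ± 7.98 CPM (SD, n = 4; adjusted p = 0.819, edgeR), and *Hes2* and *Hes3* had no count in any library.

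**Figure D4:**
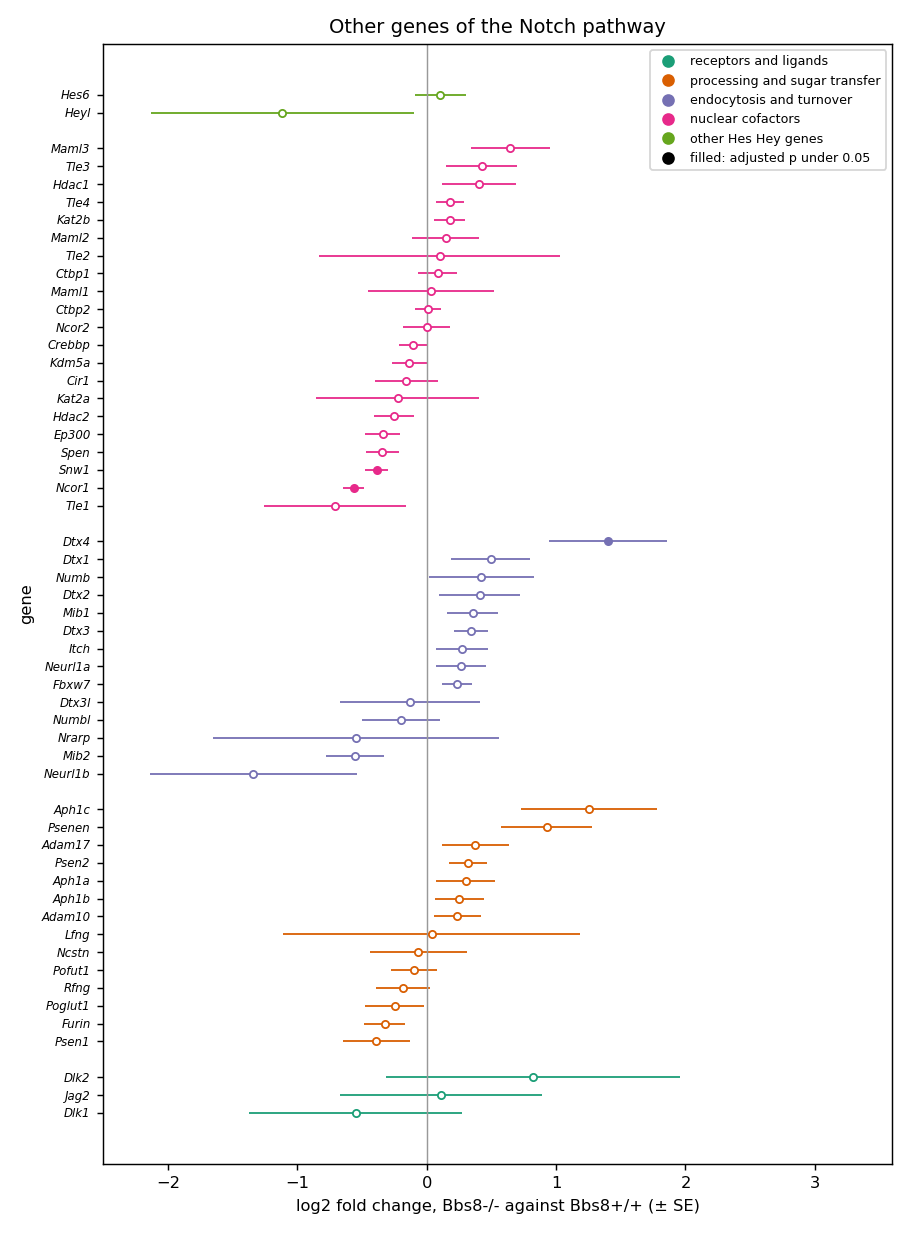
Log2 fold change in *Bbs8*-/- against *Bbs8*+/+ RPE (horizontal axis, ± standard error) of the 54 tested genes of the wider Notch pathway, colored by role. Filled points passed an adjusted p of 0.05: *Dtx4* at 1.40, *Snw1* at -0.39 and *Ncor1* at -0.56.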

How the data were processed

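RNA (30 ng) from RPE of 4 *Bbs8*+/+ and 4 *Bbs8*-/- mice was sequenced with QuantSeq, 1 read of 100 bp per fragment. The authors trimmed reads with BBDuk, aligned them with STAR to mm10 with Ensembl gene models, and used htseq-count for the raw gene counts that the authors deposited. Reads that did not map uniquely were 32.8% to 34.5% of those listed, and reads outside genes 17.0% to 20.6%, and both stayed out of library sizes. Symbols and coordinates came from GENCODE M21 (GRCm38, the same build), which named 30934 of 31053 identifiers, and promoters from RefSeq GRCm38.p6.

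Counts were analyzed in R 4.3.3 with edgeR 4.0.16 and limma 3.58.1. Genes reaching 1 CPM in 4 or more of the 8 libraries were kept, scaled by TMM, and compared with edgeR's quasi-likelihood test, two-sided, with Benjamini-Hochberg adjustment over all tested genes and a threshold of 0.05. The study also filtered on multi-mapping reads, which was not repeated. Standard errors came from the F statistic, and intervals are 95%. The procedure was tested on simulated data. Each mouse was 1 replicate, and libraries of a genotype differed by 2.87 to 7.51 times the sampling variance. The Notch genes and lists were chosen with earlier results of these data known. Genes named were the 10, *Ttc8*, pathway genes past the threshold, the gene of each list with the highest mean over 8 libraries, and markers at 0. *Furin*, *Serpina3n*, *Edn2*, *Gfap* and the RPE, Müller glia and epithelial genes were named after their values were seen. So were *Notch4*, *Dll3*, *Dll4*, *Psenen*, *Dlk2*, *Jag2*, the *Maml* genes, *Hes2* and *Hes3*. Alternatives were DESeq2 1.42.0, edgeR's likelihood ratio test, other scalings and filters, a replicate block, a threshold of 0.01, and each library left out. Lists not shown beside a Notch gene were fibroblasts (2 of 8 lower), myeloid cells (0 of 9), melanocytes (1 of 5 higher) and erythrocytes (5 of 6 lower).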

Additional observations from a re-analysis of the deposited data

Results flagged for a closer look

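*Jag1* in *Bbs8*-/- replicate 1 was flagged because 1 library lay far from the others of its group. It had 70.6 CPM, while the other 3 *Bbs8*-/- libraries had 48.4 to 49.6 CPM. The 10 Notch genes and *Ttc8* were examined in both genotypes, 22 groups of 4 libraries, and chance flags about 1 in 20 such groups.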

How the results depend on the processing

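*Hey2* and *Jag1* were also called by DESeq2, edgeR's likelihood ratio test, TMM without photoreceptor, lens and erythrocyte genes, no filter, and a filter of at least 10 counts in 4 libraries. Scaling by library size alone moved the median of all genes from 0.02 to 0.11, turned the balance of all genes to 1005 higher and 657 lower, and gave 0 down-regulated Notch genes and 2 up-regulated pathway genes. An adjusted p of 0.01 left 0 Notch genes in either direction, 0 up-regulated pathway genes, and 394 up-regulated and 571 down-regulated genes in all. With the replicate block, 0 Notch genes (*Hey2* at an adjusted p of 0.0794, edgeR) and 0 pathway genes were up-regulated. Same-numbered libraries shared only a number, with correlations of their deviations from -0.0552 to 0.00525. With each library left out, 0 to 1 Notch genes were up-regulated and 0 to 1 down-regulated, 0 to 2 pathway genes were up-regulated and 2 to 3 down-regulated, and 542 to 643 genes in all rose and 708 to 856 fell, from 704 and 877. The ranges were -3.49 to -3.06 for *Ttc8*, and crossed 0 for *Rbpj* (-0.093 to 0.23), *Dll1* (-0.12 to 0.87), *Hes5* (-0.063 to 0.81) and *Hey1* (-0.19 to 0.86). The cause was not tested. Depth limits *Notch3*, *Dll1*, *Hes5*, *Hey1* and *Hey2*, all with a mean over 8 libraries under 5 CPM.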
